A study of Mus musculus with 3 samples.

Results

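The fibroblast growth factor (FGF) receptors and ligands were examined in cultured mouse dermal fibroblasts that differ in the activity of 1 of these receptors, Fgfr3. All probe sets annotated to exactly 1 gene symbol were searched for 4 receptors (Fgfr1, Fgfr2, Fgfr3 and Fgfr4) and 6 ligand genes (Fgf1, Fgf2, Fgf7, Fgf10, Fgf13 and Fgf18). All 10 genes were found, in 11 of the 9039 named probe sets, with a pair of probe sets for Fgfr2 and 1 for each other gene. Their RNA was hybridised, by genotype, to 3 Affymetrix expression arrays. The FGFR3Act cells came from Fgfr3G374Rneo- mice, in which the G374R change makes Fgfr3 signal without ligand. The FGFR3KO cells came from FGFR3G374Rneo+ mice, whose allele differs from the active one in still holding the neo cassette and which, per the labels, have no functional receptor. The controls, FGFR3WT, were from wild-type Bl6 animals, and no cells were treated. Zygosity, age and any litter relation were not given in the sources used here. In the table there is 1 column per genotype, although the series states 3 samples per group, so no spread between cultures could be computed and no difference below carries a test.

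FGF receptors are tyrosine kinases of the cell surface that are brought together by an FGF bound with heparan sulfate. The activated receptor signals through docking and adaptor proteins to RAS and the ERK kinases, which in turn induce inhibitors of the same pathway. In skin, fibroblasts secrete Fgf7 and Fgf10, which act on a splice form of Fgfr2 that epithelial cells make, and receptors of the mesenchymal splice forms receive other FGFs. Fgfr3 is best known as a brake on the growth of cartilage, where Fgf18 is one of its ligands.

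Of the 10 genes, 4 were measurable: the receptors Fgfr1 and Fgfr2 and the ligands Fgf7 and Fgf18. Fgf7 stood 3.85-fold higher on FGFR3Act than on FGFR3WT and was the only member at least 2-fold apart in any pair of arrays at the settings used. Of all named probe sets in that comparison, 4.25% stood 2-fold or more above FGFR3WT. Fgf18 was below the measurable range on FGFR3Act and above it on the other arrays. Fgfr2 was highest on FGFR3KO, and Fgfr1 differed little between the arrays. Fgfr3 itself gave no usable signal in any genotype, wild type included.

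A probe set was called measurable where its signal exceeded the 40th percentile of its array, controls left out, a floor of 123 for FGFR3Act, 122 for FGFR3KO and 121 for FGFR3WT. The floor stands in for detection calls, which were not given in the sources used here. Between 60.5% and 60.6% of the named probe sets were above it on each array. Among the members, 3 of 11 probe sets were above the floor on all arrays, 1 on a pair of arrays, 1 on a single array and 6 on none. By role, 2 of 4 receptor genes and 2 of 6 ligand genes were above it on at least one array. Lower signals were set to the floor before logs were taken, so any fold that involves a floored array is a lower bound, written "at least".

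**Figure D1:**
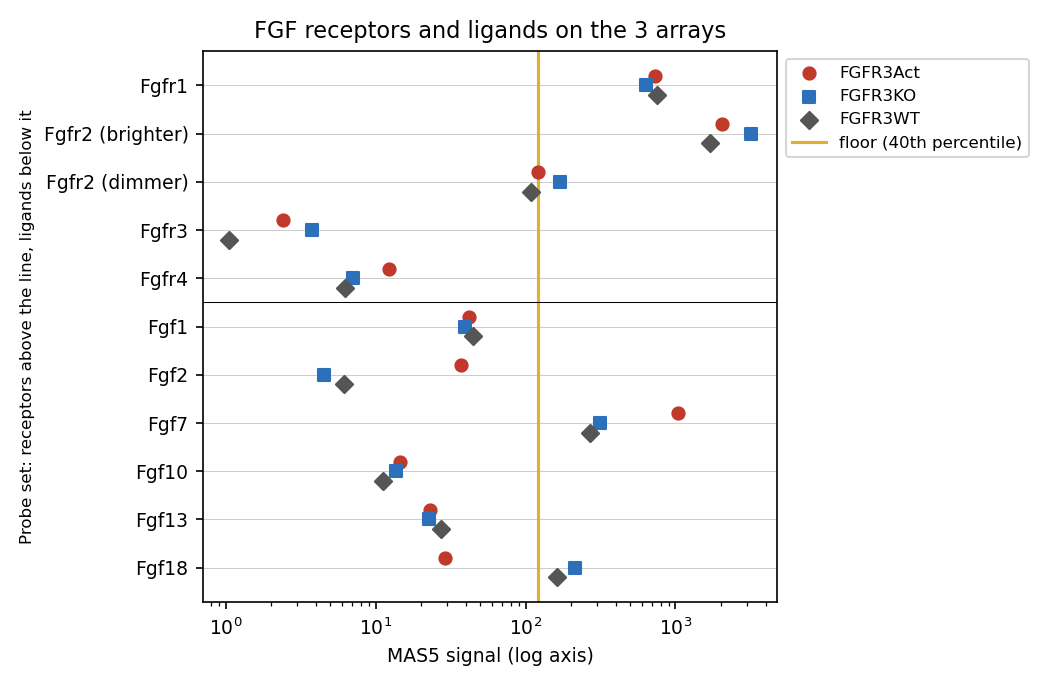
The MAS5 signal of each of the 11 probe sets is plotted on a log axis, with 1 symbol per array (red circle FGFR3Act, blue square FGFR3KO, grey diamond FGFR3WT) and the floor of about 122 as a vertical line. The 6 probe sets of Fgfr3, Fgfr4, Fgf1, Fgf2, Fgf10 and Fgf13 lie left of the line on every array, Fgf7 stands apart on FGFR3Act at 1036, and Fgf18 crosses the line between FGFR3Act at 29.1 and the other arrays.

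Fibroblast markers were present on all arrays. Of 16 dermal fibroblast markers, among them Col1a1, Col1a2 and the matrix proteoglycan gene Dcn, 15 were above the floor on each array and Prrx1 on none. Their summed signal was 58927 on FGFR3Act, 83887 on FGFR3KO and 63635 on FGFR3WT. Their median signal had another order, at 2089, 2393 and 2867. Of the 15, 10 were lower on FGFR3Act than on FGFR3WT (median log2 difference -0.42) and 12 lower than on FGFR3KO (-0.48), while FGFR3KO and FGFR3WT differed by a median of 0.07. These medians use 1 probe set per gene. For FGFR3Act against FGFR3WT, those of Col1a1, Col3a1 and Col5a1 gave -0.11, -0.95 and -0.53. The other probe sets of these genes gave -2.94, -3.18 and -0.71, and -2.93, -2.31 and -1.13 against FGFR3KO. Macrophage markers differed between the arrays: of 20, FGFR3Act had 16 above the floor, FGFR3KO 2 and FGFR3WT 1, with summed signals of 45112, 1485 and 1313. Under the floor on FGFR3Act were Itgam, Aif1, Cd48 and the probe set that stood for Ptprc, whose other probe set was higher there than on FGFR3WT (at least 1.12 in log2). Of 15 keratinocyte and epithelial markers, FGFR3Act, FGFR3KO and FGFR3WT had 3, 4 and 3 above the floor, and of 9 endothelial markers 2 on each array. The 3' to 5' signal ratio of the beta-actin controls, a sign of RNA integrity, was 1.44 on FGFR3Act, 1.82 on FGFR3KO and 1.64 on FGFR3WT. The 18S RNA controls did not keep this order. At 3' and 5' they read 971 and 203 on FGFR3Act, 2103 and 989 on FGFR3KO, and 866 and 406 on FGFR3WT. In bulk RNA, fewer cells of a type and less RNA per cell cannot be told apart.

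With no replicate arrays, the only internal scale for a difference was how far separate probe sets of the same gene disagreed. Over 532 such pairs above the floor on both arrays, the log2 differences between FGFR3Act and FGFR3WT disagreed by a median of 0.31 and by 0.85 at the 90th percentile, which corresponds to an SD of 0.38 per probe set. For FGFR3KO against FGFR3WT the median over 529 pairs was 0.39, the 90th percentile 0.95 and the SD 0.43. For FGFR3Act against FGFR3KO, over 508 pairs, these were 0.46, 1.27 and 0.54. This spread arises within arrays, its sources were not separated, and it leaves out the variation between cultures.

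Fgfr3 was represented by 1 probe set of the _r_ kind, for which Affymetrix relaxed its probe selection rules. Its signals were 2.42 on FGFR3Act, 3.76 on FGFR3KO and 1.06 on FGFR3WT. At most 2.14% of the non-control probe sets of any array had a lower signal, so these values carry no order and no fold is given. The probe set therefore checks neither the active allele nor the loss of the receptor, and where its probes lie relative to the G374R change or the neo cassette was not given. Fgfr4, a receptor known mainly from liver, muscle and lung, was likewise far below the floor, with signals of 12.3, 7.08 and 6.24 in the same order of arrays.

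Fgfr1, the main mesenchymal FGF receptor, read 730.0 on FGFR3Act, 633 on FGFR3KO and 753 on FGFR3WT. The 3 arrays lay close together, with FGFR3KO the lowest. The log2 difference of Fgfr1 was -0.05 for FGFR3Act against FGFR3WT, and its sign turned under quantile normalisation (0.04) and cyclic loess (0.09). It was -0.25 for FGFR3KO against FGFR3WT and 0.20 for FGFR3Act against FGFR3KO. Each is smaller than the SD between probe sets of 1 gene in that pair. The probe set is of the _f_ kind, whose probes can match other members of a sequence family, so part of its signal may come from related transcripts.

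Fgfr2, whose splice forms receive either epithelial or mesenchymal FGFs, had the highest signal on FGFR3KO in both of its probe sets. The brighter one read 2032 on FGFR3Act, 3209 on FGFR3KO and 1701 on FGFR3WT. FGFR3KO stood apart and FGFR3Act lay nearer to FGFR3WT. The signal on FGFR3KO was 1.89-fold that on FGFR3WT, a log2 difference of 0.92, which lies just under the 0.95 by which probe sets of 1 gene disagreed at the 90th percentile. Of 5753 named probe sets in that comparison, 157 (2.73%) were at least as far above FGFR3WT. FGFR3Act against FGFR3WT gave a log2 difference of 0.26, and FGFR3Act against FGFR3KO one of -0.66.

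The other Fgfr2 probe set, of the _s_ kind, was dim, at 120.2 on FGFR3Act, 169 on FGFR3KO and 109 on FGFR3WT, above the floor on FGFR3KO alone. It kept the order of the first, with FGFR3KO at least 1.40-fold above FGFR3WT and at least 1.38-fold above FGFR3Act. FGFR3Act and FGFR3WT could not be compared in it. Neither probe set can be assigned here to the epithelial or the mesenchymal splice form. The beta-actin controls were higher on both mutant arrays, at 1.48 to 1.65 times FGFR3WT on FGFR3KO and 1.36 to 1.55 times on FGFR3Act, and the Gapdh control was at 0.91 and 0.55 times. The 18S RNA controls were higher on FGFR3KO, at 2.43, 2.44 and 1.65 times FGFR3WT. On FGFR3Act they were at 1.12, 0.50 and 0.67 times. The keratinocyte and epithelial list summed to 2951 on FGFR3Act, 1766 on FGFR3KO and 1639 on FGFR3WT. Perp, the brightest gene of that list, alone read 1928, 554 and 629 in the same order of arrays. Among the epithelial markers, Epcam, Krt8 and Krt18 were under the floor on every array. Krt6a (224, 289 and 234) and Lor (267, 319 and 245) were highest on FGFR3KO, and Krt1 was above the floor there alone, at 158. The part of these in the Fgfr2 difference was not tested.

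Fgf7, or keratinocyte growth factor, is secreted by fibroblasts and acts on epithelial Fgfr2. Its signal was 1036 on FGFR3Act, 313 on FGFR3KO and 269 on FGFR3WT. FGFR3KO and FGFR3WT lay together at 2.57 and 2.23 times the floor, and FGFR3Act stood alone at 8.45 times the floor. The log2 difference was 1.95 for FGFR3Act against FGFR3WT and 1.73, or 3.31-fold, for FGFR3Act against FGFR3KO. Both exceed the 90th percentile of disagreement between probe sets of 1 gene (0.85 and 1.27). FGFR3KO against FGFR3WT differed by 0.22, within that spread.

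Of 5830 named probe sets compared between FGFR3Act and FGFR3WT, 73 (1.25%) were at least as far up as Fgf7, and of 5886 compared with FGFR3KO, 143 (2.43%). Fgf7 has 1 named probe set, so there was no second reading of it to set beside the first. Where another gene did have a second probe set above the floor on both arrays, a difference of at least 2-fold between FGFR3Act and FGFR3WT was met by the same direction in 71 of 79 cases (89.9%) and by at least 2-fold in 32 (40.5%). The macrophage markers, with a summed signal of 45112 on FGFR3Act against 1313 on FGFR3WT, were higher on the same array as Fgf7, and their part in the Fgf7 difference was not tested.

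Fgf18, a ligand that signals through Fgfr3 in cartilage, was lowest on FGFR3Act, the array on which Fgf7 was highest. Its signal was 29.1 on FGFR3Act, 215 on FGFR3KO and 163 on FGFR3WT. FGFR3KO and FGFR3WT were above the floor, at 1.77 and 1.35 times it, and FGFR3Act was well under it. FGFR3Act was at least 1.33-fold lower than FGFR3WT and at least 1.76-fold lower than FGFR3KO. Because the signals above the floor are themselves dim, the floor limits how large these bounds can be. When the floor was set at the 20th percentile, the log2 differences became -2.29 and -2.70, past 2-fold in both pairs. FGFR3KO was 1.32-fold higher than FGFR3WT (log2 difference 0.40), within the SD between probe sets of 1 gene.

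Markers of chondrocytes, cells in which Fgf18 and Fgfr3 act, also had their lowest sum on FGFR3Act, but not every marker followed it. Of 7 with a named probe set, FGFR3Act had 1 above the floor, FGFR3KO 3 and FGFR3WT 2, and their summed signals were 479, 980.4 and 645. The cartilage proteoglycan gene Acan read 68.5, 319 and 202, while Matn1, Matn3, Hapln1 and Col11a2 were under the floor on every array. The collagen gene Col9a2, the brightest marker and above the floor on all arrays, read 328, 365 and 235, so FGFR3Act was above FGFR3WT. Most fibroblast markers were lower on FGFR3Act too (medians of -0.42 and -0.48 against FGFR3WT and FGFR3KO). The part of these markers in the Fgf18 difference was not tested.

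The other 4 ligand genes were under the floor on every array. Fgf1, which can bind all FGF receptors, was the brightest of them at 41.8 on FGFR3Act, 39.7 on FGFR3KO and 44.6 on FGFR3WT, at 0.34, 0.33 and 0.37 times the floor. Fgf2, a heparin-bound growth factor of many mesenchymal cells, was listed at 37.3, 4.51 and 6.17. The FGFR3Act value is the highest of the 3, but no fold is given since all lie under the floor. Fgf10, the mesenchymal partner of epithelial Fgfr2, stood at 14.6, 13.6 and 11.2. Fgf13, an intracellular relative that binds sodium channels and is not secreted, stood at 22.9, 22.8 and 27.5.

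**Figure D2:**
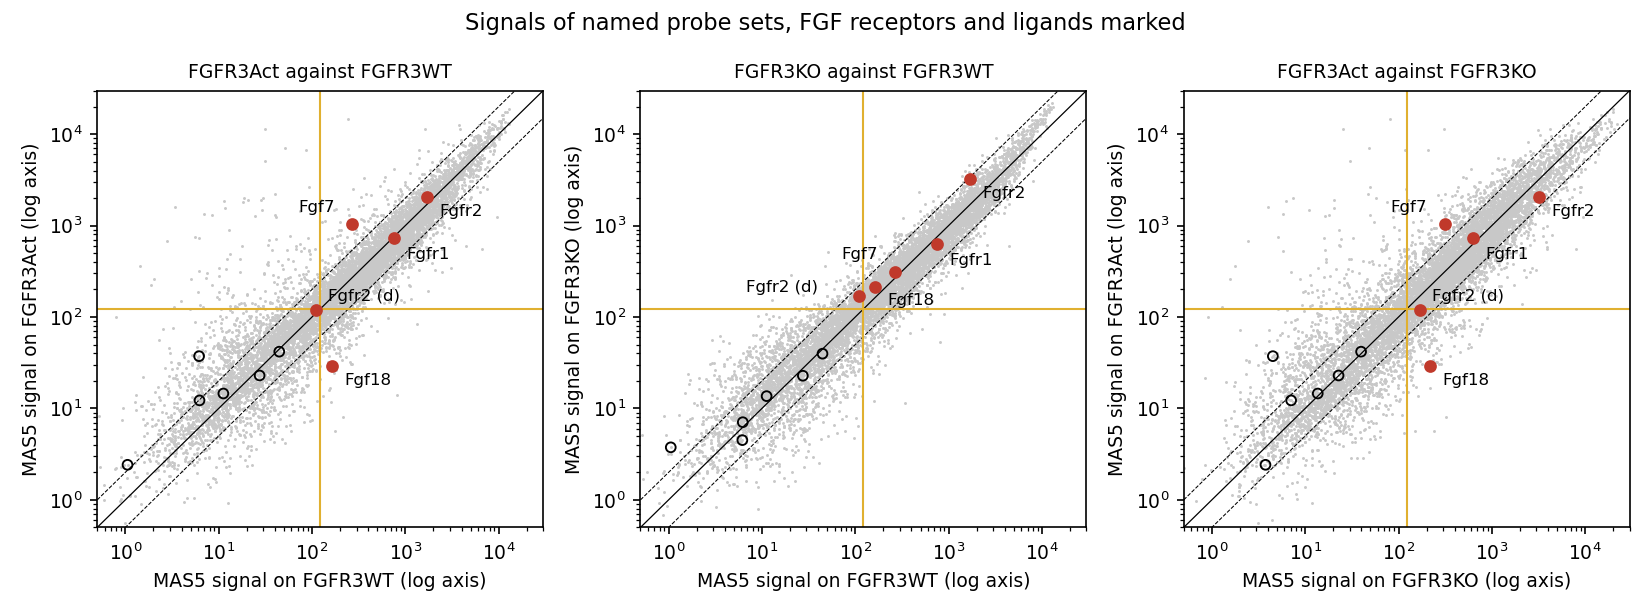
Each panel plots the MAS5 signals of all named probe sets on a pair of arrays on log axes (grey), with the floors as yellow lines, equality as a solid line and 2-fold differences as dashed lines. Measurable members are red and labelled (Fgfr2 (d) is the dimmer Fgfr2 probe set) and the 6 unmeasurable ones are open circles. Fgf7 lies above the upper dashed line in the panels with FGFR3Act, at 1036 against 269 and 313, and Fgf18, at an FGFR3Act signal of 29.1 under the floor, lies below the lower one there. No measurable member lies outside the dashed lines for FGFR3KO against FGFR3WT.

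Over the members as a group, 4 probe sets could be compared between FGFR3Act and FGFR3WT. Of these, 1 passed 2-fold upward on FGFR3Act and 0 downward, where 4.25% and 4.8% of all named probe sets did, and their median log2 difference was 0.11 against -0.06 over all named probe sets. For FGFR3KO against FGFR3WT, 0 of 5 passed 2-fold upward or downward, against 1.95% and 3.67% of all named probe sets. Their median was 0.40 against -0.02. For FGFR3Act against FGFR3KO, 1 of 5 passed 2-fold upward and 0 downward, against 8.65% and 7.46%, with a median of -0.46 against -0.05. With 4 or 5 probe sets, these counts set the members neither above nor below the background. The comparisons share arrays pairwise, so they are not separate evidence.

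**Figure D3:**
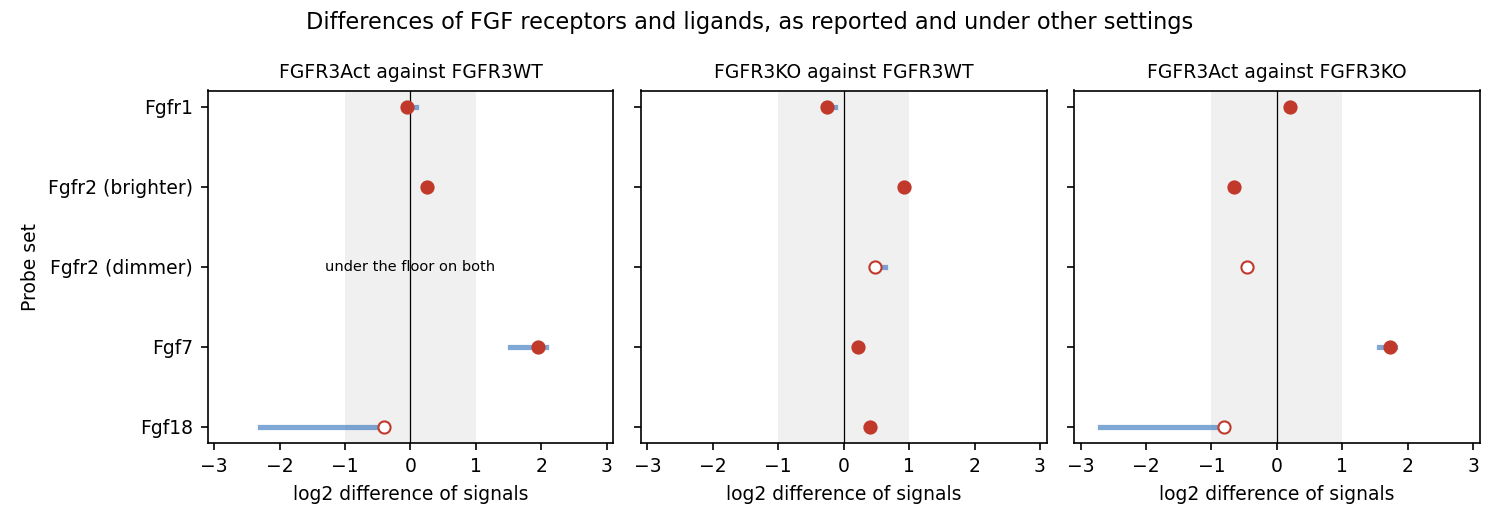
The log2 difference of each measurable probe set is shown for the 3 pairs of arrays, with filled circles for differences measured on both arrays, open circles for bounds against the floor, and blue bars for the range over the other processing settings. The grey band marks differences under 2-fold. Fgf7 stays right of the band in both pairs with FGFR3Act, from 1.52 to 2.07 against FGFR3WT and from 1.56 to 1.81 against FGFR3KO, while Fgf18 leaves it on the left only under some settings.

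The genes with the pattern most like that of Fgf7 were found among 4502 other named genes above the floor on all arrays, by the Euclidean distance between the log2 differences of FGFR3Act and of FGFR3KO from FGFR3WT. The nearest was Cd14, a co-receptor for bacterial lipopolysaccharide that is one of the macrophage markers used here, at a distance of 0.16. It read 2121 on FGFR3Act, 655 on FGFR3KO and 602 on FGFR3WT. Cd14 was the only macrophage marker above the floor on all arrays, so no other could enter this search. Thumpd1 followed at 0.25 and Creg1 at 0.27. A likeness over 3 arrays rests on 2 differences and is a description.

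The rest of the pathway was described through 7 lists, 155 genes in all, of which 97 had a named probe set and 67 were above the floor on at least one array. Between FGFR3Act and FGFR3WT, 6 of 67 passed 2-fold upward on FGFR3Act and 2 downward, where 4.14% and 4.79% of all named genes did. Under quantile normalisation and cyclic loess the split was 6 and 0. Between FGFR3KO and FGFR3WT, 3 of 63 passed it upward on FGFR3KO and 6 downward, against 1.93% and 3.61%. Between FGFR3Act and FGFR3KO, 11 of 65 passed it upward on FGFR3Act and 3 downward, against 8.33% and 7.49%. The median log2 differences over all named genes, beside which the list medians below stand, were -0.07, -0.02 and -0.05 in the same order of pairs.

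Other FGF genes were mostly under the floor. Of 11 with a named probe set, only Fgf4, an FGF of the early embryo, and Fgf11, an intracellular relative, passed it on any array. Fgf4 read 378 on FGFR3Act, 409.9 on FGFR3KO and 292 on FGFR3WT. Fgf11 read 122.1, 166 and 127 in the same order of arrays, the FGFR3Act value lying just under that array's floor of 122.6. Neither was 2-fold apart in any pair.

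Co-receptors and carriers, such as syndecans and glypicans, hold FGFs at the cell surface. Of 12 measurable genes, 0 passed 2-fold upward on FGFR3Act from FGFR3WT and 1 downward, with a median of -0.15, and on FGFR3KO 2 passed it upward and 0 downward, with a median of 0.19. Perlecan (Hspg2), a heparan sulfate proteoglycan of the matrix, read 80.8 on FGFR3Act, 453 on FGFR3KO and 223 on FGFR3WT, which puts FGFR3KO 2.03-fold above FGFR3WT. FGFR3Act was at least 3.70-fold below FGFR3KO. The adhesion molecule Ncam1, which can engage FGF receptors, read 441 on FGFR3Act, 1118 on FGFR3KO and 919 on FGFR3WT. It was 2.08-fold lower on FGFR3Act than on FGFR3WT. Neuropilin 1 (Nrp1) read 2378, 4577 and 1877 and FGFR3KO was 2.44-fold above FGFR3WT. In Hspg2 and Ncam1, as in Fgf18 and in the summed fibroblast markers, FGFR3Act was the lowest array and FGFR3KO the highest. The brightest genes weigh most in that sum, and the median signal of the fibroblast markers was highest on FGFR3WT (2089 on FGFR3Act, 2393 on FGFR3KO and 2867 on FGFR3WT).

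Adaptors and effectors next to the receptor had a median of -0.36 on FGFR3Act and -0.31 on FGFR3KO against FGFR3WT, over 10 genes each. Over all named genes the medians were -0.07 and -0.02. Of the 10 adaptors, 8 were lower on FGFR3Act and 9 on FGFR3KO, and the wild-type array is common to both. With no filter on low values, the adaptor median for FGFR3Act against FGFR3WT became 0.0005. Grb2, which links activated receptors to the RAS exchange factor SOS, read 187 on FGFR3Act, 161 on FGFR3KO and 353 on FGFR3WT, with log2 differences of -0.92 and -1.13 from wild type. The docking protein gene Gab1 read 500.4, 307 and 697, and was 2.27-fold lower on FGFR3KO. By its brightest probe set, no adaptor was 2-fold apart between FGFR3Act and FGFR3KO. The probe sets of Pik3ca disagreed, with log2 differences between FGFR3Act and FGFR3WT of 0.52 in the brighter and -1.36 in the other.

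The RAS, MAPK and AKT core held 12 measurable genes, with medians of -0.24 on FGFR3Act and -0.30 on FGFR3KO against FGFR3WT. Map2k1, which encodes the ERK kinase MEK1, read 1918 on FGFR3Act, 828 on FGFR3KO and 2049 on FGFR3WT. FGFR3KO stood apart, 2.47-fold below FGFR3WT and 2.32-fold below FGFR3Act. Nras read 2395, 1144 and 1623 and was 2.09-fold higher on FGFR3Act than on FGFR3KO, with a log2 difference of 0.72 in its second probe set against 1.07 in the first.

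Feedback inhibitors and transcriptional targets of the pathway had medians of opposite sign, 0.39 on FGFR3Act over 14 genes and -0.46 on FGFR3KO over 13, each against FGFR3WT. The ERK phosphatase gene Dusp6, ordinarily induced by FGF signalling, read 966 on FGFR3Act, 89.2 on FGFR3KO and 275 on FGFR3WT, FGFR3Act the highest array and FGFR3KO, under the floor, the lowest. Past 2-fold upward on FGFR3Act from FGFR3WT were Dusp6, Fosl1 (log2 difference 1.73) and cyclin D1 (Ccnd1, 1.98, and 0.79 in its other probe set). Past 2-fold downward on FGFR3KO were Dusp6, Ier3 (-1.10) and Fos (-1.03). These 3 became 2 under quantile normalisation, under median centring and with an offset, and 1 under cyclic loess. Between FGFR3Act and FGFR3KO these 5 and Dusp1 (1.42) passed 2-fold upward on FGFR3Act. The probe sets of Ccnd1 disagreed in that pair, at 2.24 and 0.33, and its second one was 0.46 higher on FGFR3KO than on FGFR3WT. Fosl1 was higher than FGFR3WT on FGFR3KO too (0.64), as was the feedback inhibitor Spry4 on FGFR3Act (0.40) and FGFR3KO (0.42). The target Etv4 was within 0.22 of wild type on both mutant arrays. Of the 14, 4 were lower on FGFR3Act than on FGFR3WT: Spred2 (-0.65), Myc (-0.47), Ier2 (-0.40) and Etv4 (-0.22). Spred2 (-0.46), Myc (-0.56) and Ier2 (-0.11) were lower on FGFR3KO too. The macrophage markers were higher on FGFR3Act here too, and their part in this list was not tested.

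**Figure D4:**
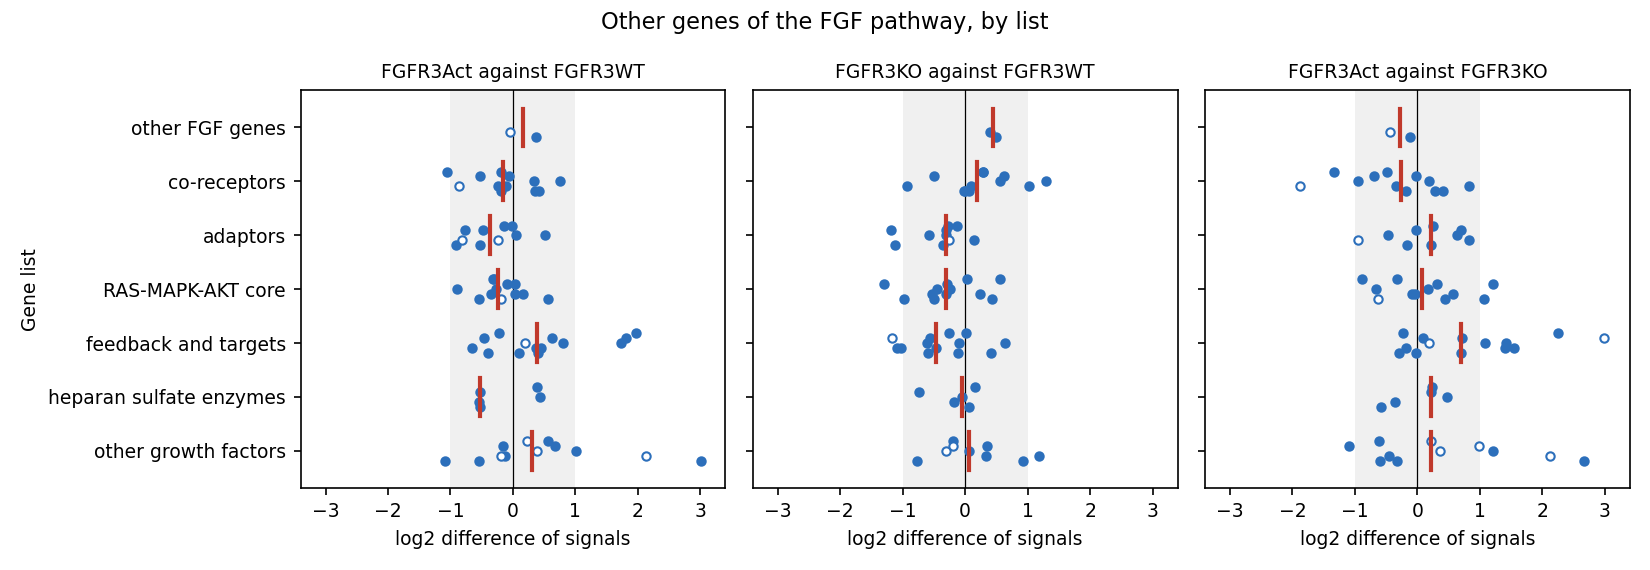
Each point is 1 measurable gene of the 7 pathway lists, placed by its log2 difference in the pair of arrays named above the panel, with open points for bounds against the floor and a red bar at the list's median. The grey band marks differences under 2-fold. The feedback and target list shifts from a median of 0.39 for FGFR3Act against FGFR3WT to -0.46 for FGFR3KO against FGFR3WT, while the adaptors lie left of 0 in both.

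Enzymes that build and edit heparan sulfate had 5 measurable genes and none 2-fold apart in any pair. The chain polymerases Ext1 and Ext2 had log2 differences of -0.52 and -0.55 for FGFR3Act against FGFR3WT and 0.07 and -0.18 for FGFR3KO against FGFR3WT. The epimerase gene Glce was also lower on FGFR3Act than on FGFR3WT (-0.52), and Extl3 (0.43) and the sulfotransferase gene Hs2st1 (0.39) were higher. Other growth factors and cytokines that fibroblasts exchange with epithelium had 12 measurable genes between FGFR3Act and FGFR3WT. The Kit ligand gene Kitl, whose product acts on melanocytes and mast cells, read 1121 on FGFR3Act, 176 on FGFR3KO and 138 on FGFR3WT. The EGF receptor ligands Ereg (at least 2.13 in log2) and Hbegf (1.02) were also higher on FGFR3Act, and Tgfb2 was lower (-1.09). In Kitl, Ereg and Hbegf, as in Fgf7, FGFR3Act was the highest array. For Igf2, FGFR3KO was 2.26-fold above FGFR3WT. Igf1 was 2.14-fold lower on FGFR3Act than on FGFR3KO in its brighter probe set, but its other one differed by 0.12 in the opposite direction. Interleukin 1 alpha (Il1a), which induces Fgf7 in skin fibroblasts, read 157 on FGFR3Act, 48.6 on FGFR3KO and 10.1 on FGFR3WT, above the floor on FGFR3Act alone. Tumour necrosis factor (Tnf) was likewise above it on FGFR3Act alone, at 142, with 22.5 on FGFR3KO and 18.5 on FGFR3WT, and Il1b was under the floor on every array. The macrophage markers (summed signal 45112 on FGFR3Act, 1485 on FGFR3KO and 1313 on FGFR3WT) were highest on the same array as Kitl, Ereg, Hbegf, Il1a and Tnf. Igf2 and the brighter Igf1 probe set were highest on FGFR3KO, and Tgfb2 on FGFR3WT. The part of the macrophage markers in this list was not tested.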

How the data were processed

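Per the submitters' processing notes, the authors made the deposited values with MAS5, which turns each probe set's probe pairs into 1 intensity. The deposited intensities are positive and linear. The version, scaling target, detection calls and whether cultures were pooled or averaged in a column were not given in the sources used here. Per the labels' protocols, cRNA was made from 15 μg of RNA. Of 9889 probe sets, 18 were controls, and 9053 had 1 symbol in GEO's platform annotation (9039 without controls). Symbols were updated by gene identifier through RefSeq (GRCm38.p6), where 9041 of 9053 matched. This gave 7842 genes.

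Signals were raised to the floor, log2 was taken, and a probe set entered a pair of arrays if above the floor on at least one. All probe sets of the members were used. Each pathway or marker gene was represented by its probe set of highest mean log2 signal. The 2-fold threshold describes size. The number of arrays limits the precision. The members and gene lists were chosen with earlier results of these data known. Named were all members, pathway genes at least 2-fold apart in a pair, the 3 nearest genes to such a member, and leading markers. Fgf4, Fgf11, Pik3ca, Spry4, Etv4, Spred2, Myc, Ier2, Ext1, Ext2, Extl3, Glce, Hs2st1, Il1a, Il1b, Tnf and individual markers under the floor or cited beside a result were picked with their values in view. Alternatives were 3 scalings, 2 other floors, an offset of 12.2, 2 filters and 2 probe set choices. Python 3.11.15 and limma 3.58.1 were used, and the counting was tested on simulated data.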

Additional observations from a re-analysis of the deposited data

How the results depend on the processing

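Fgf7 was at least 2-fold higher on FGFR3Act in both of its pairs under all 9 alternatives run on the members. The number of members at least 2-fold apart went from 1 to 2, in FGFR3Act against FGFR3WT and in FGFR3Act against FGFR3KO, with the floor at the 20th percentile (2 in each) and with an offset instead of a floor (2 in each), the addition being Fgf18. Of pathway genes, 8 of 67 at least 2-fold apart between FGFR3Act and FGFR3WT became 15 of 79 with the floor at the 20th percentile and 5 of 49 at the 60th. Over all named genes, 217 higher and 251 lower of 5244 became 458 and 432 of 6727, and 118 and 140 of 3645. Between FGFR3KO and FGFR3WT, 9 of 63 pathway genes became 4 of 45 at the 60th percentile and 6 of 63 under cyclic loess. Over all named genes, 100 higher and 187 lower of 5184 became 50 and 93 of 3616, and 109 and 158 of 5184. The member differences kept their sign in 109 of 111 recomputed values, the exceptions being Fgfr1 in FGFR3Act against FGFR3WT under quantile normalisation and cyclic loess. Many of these values could not move, because a filter or a lower floor leaves a difference measured on both arrays as it was. List medians kept their sign in 195 of 210. In FGFR3Act against FGFR3KO, the median of growth factors and cytokines, 0.22, became -0.45 with both arrays above the floor, -0.33 and -0.20 with the floor at the 60th and 20th percentile, and 0.99 with the offset. That of the heparan sulfate enzymes, 0.22, became -0.37 with the floor at the 20th percentile, and that of the adaptors, 0.21, became -0.08 when the probe sets of a gene were averaged. With no filter on low values, where genes under the floor on both arrays enter with the difference between the floors, the heparan sulfate enzyme median for FGFR3Act against FGFR3WT, -0.52, became 0.02. No paired analysis was possible because each genotype has 1 array. Dim signals limit Fgf18 and the second Fgfr2 probe set, and nothing can be said of the 6 genes under the floor.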
